A study of Mus musculus with 4 samples.

Results

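Myoglobin, the globins and the carbonic anhydrases handle oxygen and carbon dioxide in muscle and blood. The genes followed here were Mb, Car2, Car3, Car4, Car14, Hba-a1, Hba-a2, Hbb-bs, Hbb-bt and Alas1, which are 10 of the 55401 genes counted. They were chosen by symbol, with earlier results of these data known. All 10 were found, and 9 had enough counts to be among the 13533 genes tested. The RNA-seq libraries came from semimembranosus, a hamstring muscle, of C57BL/6 mice aged 8 weeks. All of them carried a stenosis of the left external iliac vein, made with a ligature over a needle of 30 gauge. In the 2 libraries named IVS the mice were gavaged daily with saline. In the 2 named IVS_diosmin they were given 40 mg of diosmin per kg each day; diosmin is a flavonoid drug for venous disease. There was no group without stenosis, and the labels do not say how long treatment lasted, from which leg the muscle came, or whether the 2 libraries of a group came from separate mice. The p-values therefore measure only the spread between these libraries, which may be technical.

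Myoglobin is the oxygen-binding haem protein of muscle fibres and is known to be abundant in slow and oxidative fibres. Haemoglobin, built from alpha and beta globin chains, carries oxygen in red cells, whose young forms keep globin mRNA. Carbonic anhydrases interconvert carbon dioxide and bicarbonate at different sites: Car3 and Car2 in the cytosol, Car4 at the outer face of capillary endothelium and muscle membranes, and Car14 in the muscle membrane. Alas1 catalyses the first, rate-limiting step of haem synthesis in most tissues.

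Gene counts per library ran from 13056650 to 15324354. Muscle fibre markers (Acta1, Ckm, Myh4 and 6 others) summed to between 93921 and 103971 CPM (counts scaled to a fixed total, and then between libraries by the TMM method) in every library, as the tissue label says. Some genes listed as signs of RNA quality or nuclear RNA differed along with the treatment, though not all in 1 direction. Of 4 tested, 3 had lower values with diosmin. Of these, 2 had an adjusted p under 0.05, where 1.78% of all tested genes passed as lower. They were Rn7sk (log2 -1.94, adjusted p = 0.00630 by edgeR) and Lars2 (-1.81, adjusted p = 0.00148). Neat1 was higher without overlap (log2 0.74, adjusted p = 0.124 by edgeR), and Malat1 overlapped between the groups. Whether these genes measure RNA quality here was not tested. Lars2 took 0.229% and 0.176% of gene counts in IVS replicates 1 and 2 and 0.0545% and 0.0517% in IVS_diosmin replicates 1 and 2. Alignments set apart as not unique made up 37.7% and 38.8% of all entries counted in IVS and 45.6% and 43.6% with diosmin. Whether a read with more than 1 place was entered once or more often is not given. Genes of the mitochondrial genome took 31.5% and 38.5% of gene counts in IVS and 45.0% and 40.7% with diosmin. The part of any of these in the differences below was not tested.

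The sequences of the globins are shown first because they set which reads could be counted. In the GENCODE M21 transcripts (mm10), the coding sequences of Hba-a1 and Hba-a2 differed at 1 of 429 bases, written C381T (Hba-a1 base, coding position counted from 1 at the start codon, Hba-a2 base). Those of Hbb-bs and Hbb-bt differed at 1 of 444 bases, C417T. Both differences fell on the third base of a codon. The 60 coding bases around each difference are given below on the gene's own strand, with the differing base in capitals. The stretches lie at chr11:32284313-32284372, chr11:32297130-32297189, chr7:103826665-103826724 and chr7:103812656-103812715 (mm10), in that order.
Hba-a1: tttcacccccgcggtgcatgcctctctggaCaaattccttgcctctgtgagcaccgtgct
Hba-a2: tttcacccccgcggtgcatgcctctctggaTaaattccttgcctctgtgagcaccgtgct
Hbb-bs: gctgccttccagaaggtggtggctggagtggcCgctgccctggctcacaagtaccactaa
Hbb-bt: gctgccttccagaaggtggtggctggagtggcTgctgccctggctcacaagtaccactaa

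Of the windows of 100 bases along the longest coding transcript, 56.5% in Hba-a1 and 74.5% in Hba-a2 were found unchanged in the other alpha globin. For the beta globins the shares were 62.6% in Hbb-bs and 54.8% in Hbb-bt. The read length was not given in the sources used here; with windows of 50 bases the shares were 67.5%, 86.9%, 65.8% and 58.3% in the same order, and with 150 bases 48.4%, 65.7%, 58.7% and 50.7%. Reads from such stretches align to more than 1 place, and the deposited files count such reads apart from all genes, so every globin level is an undercount and the split between twins is uncertain. Mb, Car2, Car3, Car4, Car14 and Alas1 shared no window of 50, 100 or 150 bases with another annotated gene on their own strand.

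Mb lies at chromosome 15, 77015487 to 77050670 (mm10, minus strand), and shares exon bases with genes on the opposite strand. Of its 1492 exon bases 476 (31.9%) overlapped Gm49540 or Apol6. Gm49540, an annotated antisense gene, has 412 of its own 638 exon bases over Mb. Without strand in the counts, the reads of the genes cannot be told apart, so the level of Mb is uncertain and may be an undercount. Car14 shared 445 of 2543 exon bases with Aph1a and Alas1 shared 465 of 6174 with 4930500F10Rik, which had 0 counts in all 4 libraries. The exons of Car2, Car3, Car4 and the 4 globins overlapped no other gene.

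Promoters were available from RefSeq (GRCm38.p6) for 8 of the 10 genes, and 3 are shown: Mb, because it passed the test, and 1 alpha and 1 beta globin, because those twins are set beside each other below. Each is the 250 bases before an annotated start, 5′ to 3′ on the gene's strand, with motif matches on either strand in capitals. The Mb window (chr15:77022788-77023037, minus strand) precedes 1 of 3 starts listed for the gene.
Mb: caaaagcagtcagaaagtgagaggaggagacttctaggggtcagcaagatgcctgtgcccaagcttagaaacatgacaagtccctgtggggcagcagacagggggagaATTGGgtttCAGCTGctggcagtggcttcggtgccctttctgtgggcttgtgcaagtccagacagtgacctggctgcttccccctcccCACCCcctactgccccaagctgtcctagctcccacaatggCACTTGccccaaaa
Hba-a1: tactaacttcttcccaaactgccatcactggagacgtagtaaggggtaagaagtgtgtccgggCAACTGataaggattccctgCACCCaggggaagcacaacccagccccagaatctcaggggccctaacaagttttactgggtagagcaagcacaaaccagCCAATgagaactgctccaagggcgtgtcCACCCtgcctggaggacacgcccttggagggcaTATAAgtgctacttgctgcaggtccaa
Hbb-bs: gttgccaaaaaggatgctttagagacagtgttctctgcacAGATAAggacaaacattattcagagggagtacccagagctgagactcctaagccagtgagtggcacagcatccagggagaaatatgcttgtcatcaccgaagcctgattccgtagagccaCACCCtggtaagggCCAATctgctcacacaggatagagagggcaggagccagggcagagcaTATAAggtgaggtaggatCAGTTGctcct

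The Hba-a1 window lies at chr11:32283422-32283671 (plus strand) and the Hbb-bs window at chr7:103827929-103828178 (minus strand). The motifs searched, on both strands, were the E-box (CANNTG), the CACCC box, the CCAAT box, the TATA box (TATAA) and a GATA site (AGATAA). None overlapped another in these 3 windows. The Mb window held 2 E-boxes, 1 CACCC box and 1 CCAAT box, with no TATA box. The Hba-a1 and Hbb-bs windows each held 1 E-box, 1 CCAAT box and 1 TATA box, with 2 CACCC boxes in Hba-a1 and 1 in Hbb-bs. Hbb-bs alone of the 3 held AGATAA. Other forms of the GATA site were not searched, so their absence is not shown. Among 32851 promoter windows of the same length, 66.2% held an E-box, 52% a CACCC box, 33.8% a CCAAT box, 22.8% a TATA box and 9.99% the GATA site. The Hba-a1 and Hba-a2 windows, set 3 bases apart, were identical over all 247 bases compared. These matches describe letters and not bound sites.

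Levels were compared between genes as CPM per kilobase of exon. Mb was the highest with a mean of 358 CPM per kilobase over the 4 libraries, followed by Car3 with 298. Their ranges overlapped (185 to 623 for Mb and 63.0 to 539 for Car3), so the order of this pair was not settled. Both stood above every value of the other 8 genes, the highest of which was 22.9 for Hbb-bs in IVS_diosmin replicate 2. Hbb-bs (mean 12.2), Car14 (9.49), Hba-a1 (9.41) and Car4 (8.23) formed an overlapping middle group. Alas1 (2.61, range 2.46 to 2.77) lay below every value of Car14 and Car4. Hba-a2 (1.65), Car2 (1.24) and Hbb-bt (0.759) were the lowest and overlapped each other. The globin levels are undercounts, as given above, so the places of the 4 globins in this order are uncertain.

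**Figure D1:**
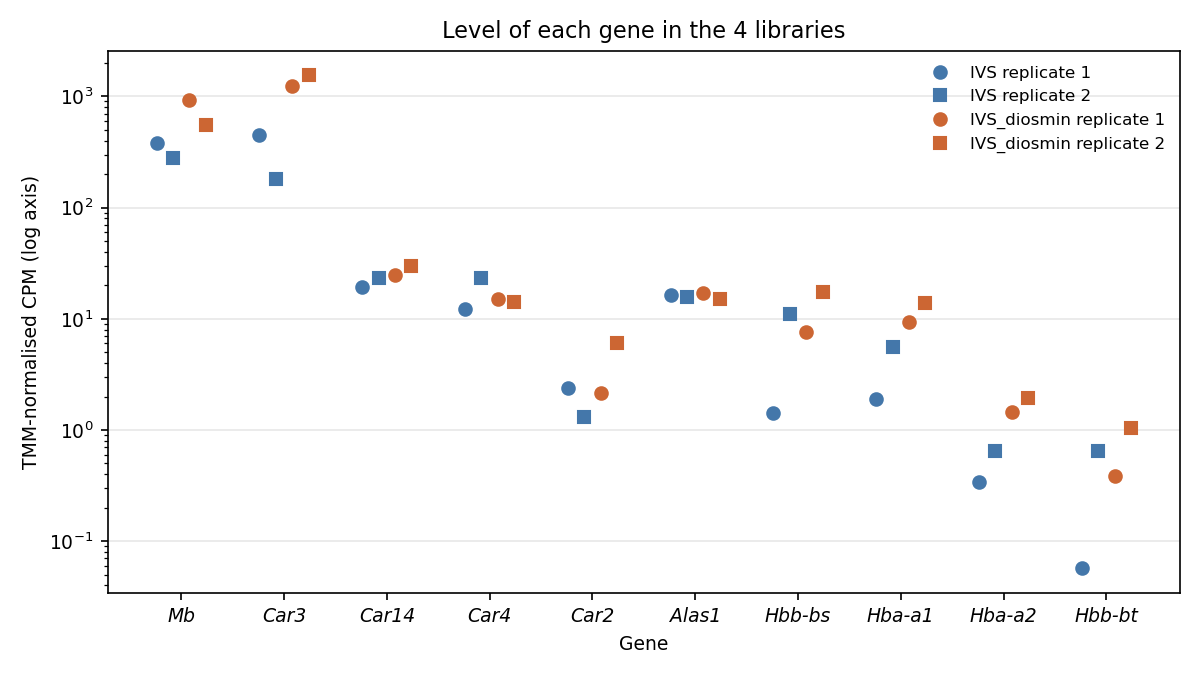
TMM-normalised CPM on a log axis for each of the 10 genes, 1 point per library, IVS in blue and IVS_diosmin in orange, with circles for replicate 1 and squares for replicate 2. For Mb and Car3 both diosmin points lie above both IVS points, while for Alas1 the 4 points lie between 15.2 and 17.1 CPM.

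The comparison of the groups asks how these genes differ when mice with the stenosis receive diosmin. Mb rose, and it was the only 1 of the 9 tested genes to pass (edgeR quasi-likelihood test, adjusted p under 0.05 over all genes tested). Car3 had the largest difference and lay just beyond the threshold, and the alpha globins were higher in both diosmin libraries without passing. For Alas1, Car4, Car14, Car2 and Hbb-bs the 95% interval of the difference included 0. Of all tested genes 2.96% passed (1.17% higher, 1.78% lower), so 1 of 9 is too few to read as a result about the set. The median log2 fold change was 1.14 over these 9 genes and 0.01 over all genes, and 8 of the 9 were above 0 where 50.5% of all genes were. The 2 groups did not overlap for 5 of the 9 genes, all 5 with diosmin above, but 47.5% of all tested genes did not overlap either (23.4% with diosmin above and 24.1% below). At an unadjusted p under 0.05 there were 4 of the 9, against 16.8% of all genes. These counts and the median support nothing about the set, which was chosen with earlier results of these data known. They also include Hba-a2, which was tested only because of its counts in the diosmin libraries. A 2-sided exact permutation test of 1 gene with 2 libraries against 2 cannot go below p = 0.333, which is why the fit across all genes was used.

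**Figure D2:**
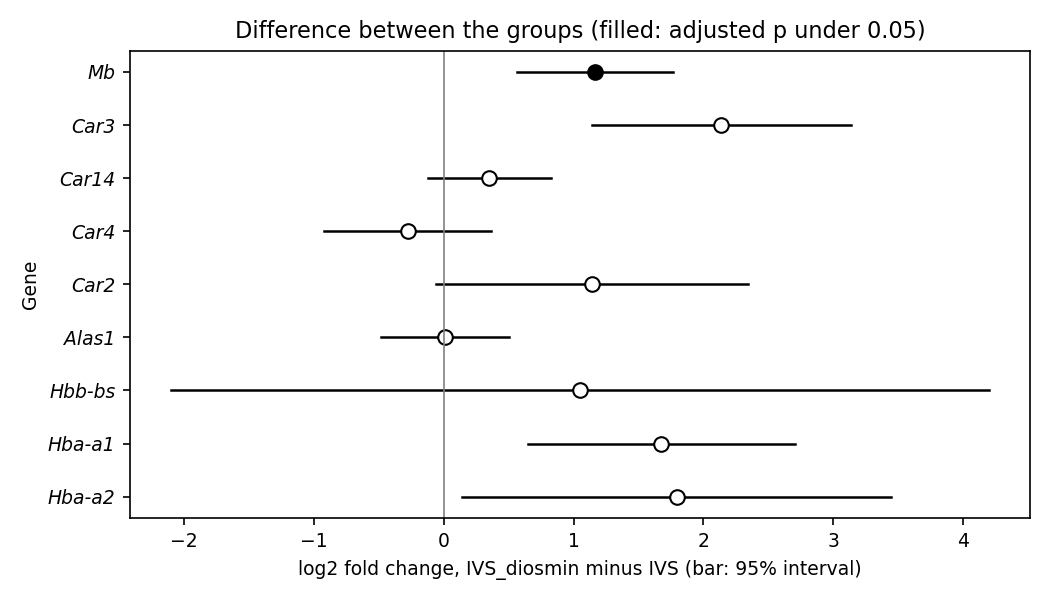
Log2 fold change (IVS_diosmin minus IVS) of the 9 tested genes with its 95% interval from the edgeR fit; the filled point is the gene past the adjusted threshold. Mb (1.16) is filled, Car3 (2.14) has the largest value, and the interval of Hbb-bs runs from -2.10 to 4.20.

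In IVS, Mb stood at 382 CPM in replicate 1 and 277 CPM in replicate 2; with diosmin it stood at 930 and 547 CPM. Both diosmin libraries were above both IVS libraries, and replicate 1 was the higher in each group. Its log2 fold change was 1.16 ± 0.27 (SE), a 2.24-fold rise, with an adjusted p = 0.0460 by edgeR. The call was lost without IVS replicate 1 (log2 1.41, adjusted p = 0.0811), without IVS replicate 2 (0.95, adjusted p = 0.277) and without IVS_diosmin replicate 1 (0.73, adjusted p = 0.350). Without IVS_diosmin replicate 2 it passed (1.48, adjusted p = 0.0406), within a range of 2.12e-05 to 0.350 over all alternatives.

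The antisense gene Gm49540 followed Mb closely. It was at 283 and 197 CPM in IVS and at 629 and 394 CPM with diosmin, in the order of replicates 1 and 2. Its count was 0.740, 0.712, 0.676 and 0.721 times that of Mb in the 4 libraries. The 2 genes thus kept nearly 1 ratio while both varied more than 3-fold between their lowest and highest library. The counts given to Gm49540 rose by a log2 fold change of 1.09 ± 0.26 (adjusted p = 0.0495 by edgeR). Since 412 of its 638 exon bases lie over Mb, this need not be the rise of a second gene. Whether these reads came from Mb was not tested. Counted together as 1 gene, a choice made after the data were seen, Mb and Gm49540 gave 1.13 ± 0.27 (adjusted p = 0.0465). Apol6, the other gene opposite Mb, had 84 to 518 counts per library and shared 64 bases with it; its log2 fold change was 1.76 (adjusted p = 0.0166), and its count was at most 0.0525 of that of Mb.

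Car3, the abundant low-activity carbonic anhydrase of slow muscle and fat, lies at chromosome 3, 14863512 to 14872523 (mm10, plus strand). Replicates 1 and 2 gave 451 and 180 CPM under saline, against 1238 and 1544 CPM under diosmin. The groups did not overlap, and the lowest diosmin library was above the highest IVS library by more than the gap between the diosmin replicates. Car3 differed by a log2 fold change of 2.14 ± 0.42 (95% interval 1.14 to 3.14, 4.40-fold), with an adjusted p = 0.0506 by edgeR. Its IVS replicates were 2.50-fold apart, a gap larger than that of 93.4% of tested genes. The threshold decided the call: the adjusted p was 0.0184 with DESeq2 and 0.0447 with RLE scaling, 0.00491 without IVS replicate 1 and 0.0205 without IVS replicate 2, and it was 0.180 and 0.249 without IVS_diosmin replicates 1 and 2. Over all alternatives it ran from 2.14e-16 (no filter on low counts) to 0.249, and the log2 fold change from 1.63 to 2.94, always higher with diosmin.

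Both genes were set beside slow fibre markers, because bulk RNA cannot tell a change in the number of cells of a type from a change in RNA per cell. All 12 slow fibre markers had higher values with diosmin and 11 passed, where 1.17% of all genes passed as higher. The marker lists were chosen with earlier results of these data known, so such shares are no test of a list. Of the 11, Tnni1 (5 and 10 counts in IVS) was tested because of its counts in the diosmin libraries. The summed level of the 12 went from 106 and 114 CPM in IVS to 4042 and 1642 CPM in IVS_diosmin replicates 1 and 2. No slow marker was at 0 throughout a group. Myh1, a fast myosin heavy chain, went from 661 and 472 CPM to 1493 and 1063 CPM. Myh2, another fast myosin heavy chain, went from 133 and 46.7 CPM to 790 and 322 CPM without passing (adjusted p = 0.200 by edgeR). The order of the diosmin libraries differed between the genes: Mb, Myh1 and the slow markers were higher in replicate 1, and Car3 was higher in replicate 2. In IVS, Mb was 1.38-fold and Car3 2.50-fold higher in replicate 1 than in replicate 2, while the summed slow markers were at 106 CPM in replicate 1 and 114 CPM in replicate 2. All 7 tested adipocyte markers had lower values with diosmin and 1 passed, where 1.78% of all genes passed as lower. The adipocyte markers summed to 1095 and 1615 CPM in IVS and 965 and 674 CPM with diosmin, in the direction opposite to Car3. Nearly all of that sum came from Fabp4, Lpl and Plin4, which capillaries or muscle also use. Adipoq, the fat cell hormone adiponectin, had 28 and 33 counts in IVS and 3 and 38 with diosmin, so its groups overlapped. Pparg went from 5.66 and 11.3 CPM to 3.24 and 1.46 CPM without overlap (log2 -1.85, adjusted p = 0.0599 by edgeR). Cidec went from 29 and 59 counts to 1 and 9, but it reached the count minimum for testing only in IVS. The part of any of these markers in the differences of Mb and Car3 was not tested.

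**Figure D3:**
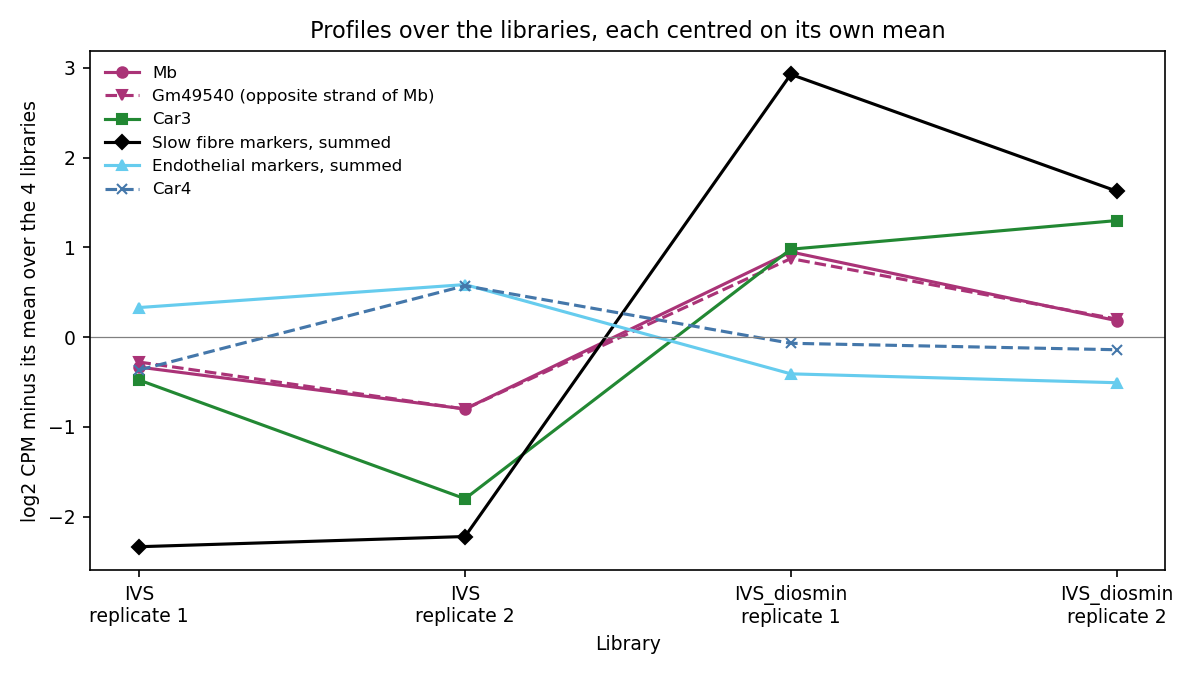
Log2 CPM minus its mean over the 4 libraries for Mb, Gm49540, Car3, Car4 and the summed slow fibre and endothelial markers; lines join the libraries only to guide the eye. Gm49540 tracks Mb in every library, Car3 lies below Mb in IVS replicate 2 and above it in IVS_diosmin replicate 2, and Car4 leaves the endothelial sum in IVS replicate 1.

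The genes most like Mb were found by the distance between log2 CPM profiles centred over the 4 libraries, among 1400 other genes with a mean of at least 50 CPM. After Gm49540 (distance 0.09) came Idh2, the mitochondrial isocitrate dehydrogenase that uses NADP (0.17), Myh1 (0.20), Coro6, a coronin (0.20), and Fabp3, the fatty acid carrier of muscle and heart (0.30). For Car3 no gene was as near: the nearest were Tnk2, a tyrosine kinase (0.79), Fhl1, a LIM protein of muscle (0.91), Mylk4, a myosin light chain kinase (1.11), Tigar, a fructose bisphosphatase (1.13), and Aox1, an aldehyde oxidase (1.17). The profile of Car3 was thus matched less closely than that of Mb. With 4 libraries, such a distance describes the libraries and is no test.

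Of the other carbonic anhydrases, Car14 was steady and Car4 and Car2 varied between replicates. Car3 made up 93.0% and 79.1% of the counts of these 4 genes in IVS and 96.7% and 96.9% with diosmin. Car2, the widespread high-activity cytosolic form, lies next to Car3 on chromosome 3 (14886273 to 14900770) and had 42, 16, 28 and 88 counts in IVS replicates 1 and 2 and IVS_diosmin replicates 1 and 2. Only IVS_diosmin replicate 2 stood apart, and the groups overlapped. The difference on the log2 scale was 1.14 ± 0.55 (interval -0.06 to 2.34, adjusted p = 0.327 by edgeR), or 0.19 without IVS_diosmin replicate 2. The other 2 genes of that cluster, Car1 and Car13, had 10 and 7 counts in all 4 libraries together, against 48399 for Car3.

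Car4 was at 12.2 and 23.3 CPM in IVS and at 15.0 and 14.2 CPM with diosmin, so the diosmin values lay between the IVS replicates. On the log2 scale Car4 differed by -0.27 ± 0.29 (interval -0.92 to 0.37, adjusted p = 0.716 by edgeR), and it turned to 0.26 without IVS replicate 2. Endothelial markers moved otherwise: 14 of 15 had lower values with diosmin and 8 passed, where 1.78% of all genes passed as lower. As with the slow markers, the list was chosen with earlier results known, so this share is no test. Their sum went from 856 and 1022 CPM to 513 and 479 CPM. Whether Car4 and these markers differ in response was not tested. Car14 was at 19.4 and 23.1 CPM in IVS and at 24.5 and 29.6 CPM with diosmin. Its groups did not overlap, but the difference was small beside its error (log2 0.35 ± 0.22, interval -0.12 to 0.83, adjusted p = 0.465 by edgeR). Its opposite neighbour Aph1a had 0.506 to 0.611 times the count of Car14, so a part of the Car14 level is uncertain.

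The globins had few counts, which are undercounts as given above. Both alpha globins were higher in the diosmin libraries, whereas the beta globins overlapped between the groups, and none passed the test. Hba-a1 (chromosome 11, 32283511 to 32284465, plus strand) had 33 and 68 counts in IVS replicates 1 and 2 and 121 and 199 in IVS_diosmin replicates 1 and 2, or 1.89, 5.53, 9.33 and 13.8 CPM. Both diosmin libraries were above both IVS libraries. Its log2 fold change was 1.67 ± 0.46 (interval 0.65 to 2.70, adjusted p = 0.0907 by edgeR). It passed with DESeq2 (adjusted p = 0.0181) and without IVS replicate 2 (log2 2.61, adjusted p = 0.0199), within a range of 0.000179 to 0.387 over all alternatives. Without IVS replicate 1 the log2 fold change was 1.07 (adjusted p = 0.227), so the size of the difference depended on which IVS library was kept.

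Hba-a2 (chromosome 11, 32296489 to 32297298, plus strand) had 6 and 8 counts in IVS and 19 and 28 with diosmin. It reached the count minimum for testing only in the diosmin libraries, so its presence among the tested genes already depended on that difference. Its log2 fold change was 1.80 ± 0.76 (adjusted p = 0.252 by edgeR). The ratio of Hba-a1 to Hba-a2 counts was 5.50, 8.50, 6.37 and 7.11 in the 4 libraries, and the 95% intervals of these ratios (counting error only) all overlapped. These intervals were wide (2.28 to 16.1 in IVS replicate 1), so their overlap cannot show that the twins kept 1 ratio. Counted together, a choice made after the data were seen, they gave a log2 fold change of 1.69 ± 0.44 (adjusted p = 0.0760 by edgeR).

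Hbb-bs (chromosome 7, 103826534 to 103828096, minus strand) had 25 and 136 counts in IVS replicates 1 and 2 and 98 and 253 in IVS_diosmin replicates 1 and 2, or 1.43, 11.1, 7.56 and 17.6 CPM. Replicate 2 was the higher in both groups, and the groups overlapped. Its IVS replicates were 7.73-fold apart, a gap larger than that of 99.3% of tested genes. The log2 fold change was 1.05 ± 1.09 (interval -2.10 to 4.20, adjusted p = 0.736 by edgeR), and it was 0.19 without IVS replicate 1 and 3.13 without IVS replicate 2 (adjusted p = 0.0220). A difference of either sign was thus within its error. Hbb-bt (chromosome 7, 103812524 to 103813996, minus strand) had 1 and 8 counts in IVS and 5 and 15 with diosmin and was not tested; counting alone gave 95% intervals from 0.00145 to 0.319 CPM in IVS replicate 1 and from 0.583 to 1.72 CPM in IVS_diosmin replicate 2.

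The alpha and beta chains did not keep 1 ratio. Alpha over beta globin counts were 1.50 (interval 0.890 to 2.57) and 0.528 (0.394 to 0.702) in IVS replicates 1 and 2, and 1.36 (1.05 to 1.77) and 0.847 (0.707 to 1.01) in IVS_diosmin replicates 1 and 2. The intervals of IVS replicates 1 and 2 did not overlap, nor did those of the diosmin replicates, so replicates of 1 group differed by more than counting error. The 4 globins summed to 3.72 and 17.9 CPM in IVS and 18.7 and 34.4 CPM with diosmin. IVS replicate 2 and IVS_diosmin replicate 1 were nearly level in this sum. PCR copies are not independent molecules, so these intervals cover counting error only.

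**Figure D4:**
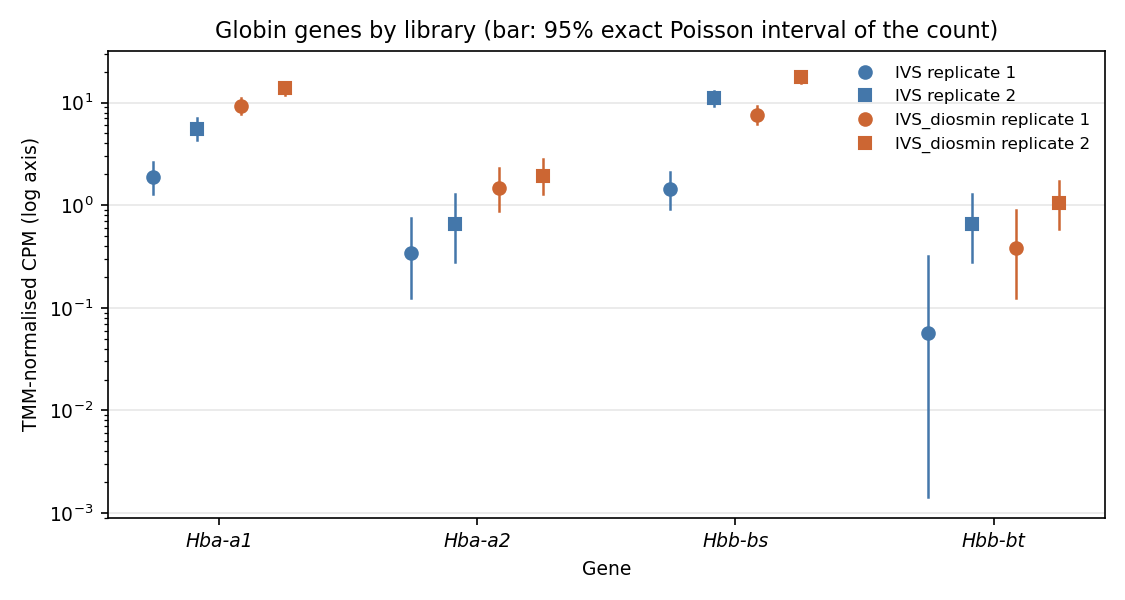
TMM-normalised CPM of the 4 globin genes by library on a log axis, with the 95% exact Poisson interval of each count; blue is IVS, orange is IVS_diosmin, circles are replicate 1 and squares replicate 2. For the alpha globins both diosmin points lie above both IVS points, whereas for the beta globins IVS replicate 2 lies above IVS_diosmin replicate 1.

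Markers of red cell precursors were nearly absent. Slc4a1, Epb42, Gata1 and Rhag had no count in any library, and 0 of 4 tested markers passed (edgeR; 1 had an unadjusted p under 0.05). Their sum of 110 to 139 CPM came mostly from Bpgm, Slc25a37 and Bnip3l, genes that muscle also uses. Alas2, the red cell form of the first haem enzyme and named after its values were seen, had 4 and 2 counts in IVS and 10 and 19 with diosmin (log2 2.35 ± 0.96, adjusted p = 0.230 by edgeR), and it shares exon bases with Apex2 on the other strand. Like Hba-a2, it reached the count minimum of 10 only in the diosmin libraries, so it was tested only because it was higher there. The part of these markers in the globin values was not tested.

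Alas1 (chromosome 9, 106233455 to 106248654, minus strand) hardly varied. It was at 16.4 and 15.7 CPM in IVS and at 17.1 and 15.2 CPM with diosmin, and the ranges overlapped. The log2 fold change was 0.01 ± 0.23 with an interval of -0.48 to 0.50 (adjusted p = 0.990 by edgeR), so a change beyond about 0.5 in either direction lay outside the interval. Its sign turned between alternatives.

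The other steps of the pathway were taken from 7 lists holding 86 genes in the files, of which 66 were tested. Of these 5 passed (3 higher and 2 lower), where 2.96% of all tested genes did. The 7 lists too were chosen with earlier results of these data known. For these lists, rose and fell mean past the threshold in that direction. Among 12 other haem synthesis genes 1 rose: Fech, which inserts iron into the haem ring, went from 26.8 and 31.7 CPM to 48.3 and 58.0 CPM (log2 0.86 ± 0.21, adjusted p = 0.0481 by edgeR), but the threshold was missed whichever library was left out (adjusted p = 0.152 to 0.232). The first enzyme, Alas1, and the last, Fech, thus gave different results in the same test, though their difference was not itself tested. The list's median was 0.23.

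No gene of haem breakdown and transport passed (0 of 11 by edgeR, 2 at an unadjusted p under 0.05, median -0.40). Its most abundant members were Flvcr1, a haem exporter (log2 -0.50), Slc48a1, which moves haem out of endosomes (0.53), and Hmox2, the constitutive haem oxygenase (-0.40). No gene of iron handling passed either (0 of 14 by edgeR, 0 at an unadjusted p under 0.05, median -0.12). There, the ferritin heavy chain Fth1 had 868 and 1225 CPM in IVS and 1137 and 1624 CPM with diosmin, so replicate 2 was the higher in both groups and the groups overlapped. The ferritin light chain Ftl1 (log2 -0.02) and the iron-sulphur scaffold Iscu (-0.14) lay near 0.

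Among 5 other tested carbonic anhydrases none passed (0 by edgeR, 2 at an unadjusted p under 0.05, median 0.12). Car8, a family member known to lack catalytic activity, was at 16.2 and 11.5 CPM in IVS and at 8.87 and 6.39 CPM with diosmin (log2 -0.87 ± 0.30, adjusted p = 0.148). Car11, likewise inactive, and Car7, a cytosolic form, had log2 fold changes of 0.12 and 0.12. Car9, a target of hypoxia-inducible factors named after its values were seen, had 6 and 12 counts in IVS and 41 and 33 with diosmin (log2 2.08 ± 0.68, adjusted p = 0.132 by edgeR). In IVS only replicate 2 reached the count minimum of 10, so Car9 was tested because of its counts in the diosmin libraries. It is 1 of the 2 genes of this list at an unadjusted p under 0.05. Of 8 other globins only Cygb, cytoglobin, was tested, and it did not pass (log2 0.20 ± 0.32, adjusted p = 0.817 by edgeR).

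Membrane carriers of bicarbonate, protons, lactate and water went both ways, with 1 of 11 past the threshold as higher, 1 as lower and a median of 0.00. Slc4a3, a chloride-bicarbonate exchanger of heart and muscle, rose from 8.69 and 10.6 CPM to 45.7 and 24.9 CPM (log2 1.88 ± 0.29, adjusted p = 0.00766 by edgeR), the higher value being in diosmin replicate 1 as for Mb. Slc4a3 was no longer past the threshold once IVS replicate 1 (adjusted p = 0.0545) or IVS_diosmin replicate 1 (log2 1.38, adjusted p = 0.140) was left out. Aqp1, a water channel abundant in capillaries, fell from 394 and 548 CPM to 92.1 and 155 CPM (log2 -1.93, adjusted p = 0.00491), and was not called without IVS_diosmin replicate 1 (adjusted p = 0.134). Its fall came with that of the endothelial markers given above, whose part was not tested.

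Among 12 oxygen-responsive and slow-programme regulators 1 rose and 1 fell, with a median of 0.20. Egln1, the prolyl hydroxylase that marks hypoxia-inducible factors for destruction, rose from 51.0 and 46.0 CPM to 83.3 and 109 CPM (log2 0.99 ± 0.21, adjusted p = 0.0282 by edgeR). Epas1, the hypoxia-inducible factor of endothelium, fell from 103 and 128 CPM to 59.3 and 60.2 CPM (log2 -0.95 ± 0.20, adjusted p = 0.0284 by edgeR), beside a median of -0.96 over the 15 endothelial markers, whose part was not tested. Neither was called whichever library was left out (adjusted p = 0.112 to 0.203 for Egln1 and 0.0563 to 0.235 for Epas1).

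**Figure D5:**
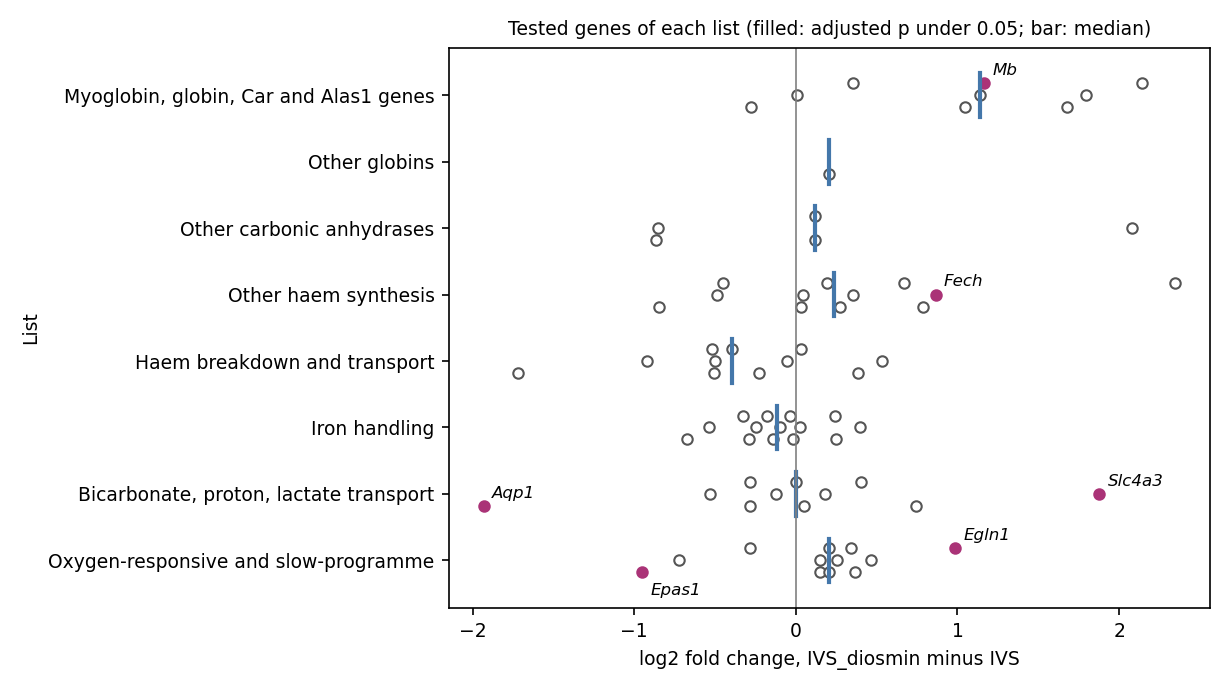
Log2 fold change (IVS_diosmin minus IVS) of each tested gene in 8 lists, with the median of each list as a blue bar; filled, named points passed the adjusted threshold. Mb, Fech, Slc4a3 and Egln1 lie to the right of 0, and Aqp1 and Epas1 to the left, while the lists of haem breakdown and iron handling hold no filled point.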

How the data were processed

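Raw counts of reads per gene were deposited by the authors, 1 file per library. Per the submitters' processing notes, HISAT2 2.1.0, HTSeq and mm10 were used. Strand setting, annotation release and read length are not given in the sources used here. Library sizes and tests left out the 5 summary lines, which hold no gene. Gene counts were 24.9% to 27.7% of all entries, those lines included. Symbols and positions came from GENCODE M21 (mm10), which matched 55141 of 55401 identifiers. Counts were tested with edgeR 4.0.16 in R 4.3.3 (filterByExpr, TMM, robust quasi-likelihood, 2-sided, Benjamini-Hochberg over 13533 genes, threshold 0.05), checked on simulated data. The standard error was the log2 fold change divided by the square root of F. DESeq2 1.42.0, other scalings, no filter, a replicate block and leaving out each library were alternatives. Genes named were the 10 members; per related list, those past the threshold or else the 3 of highest mean CPM; per marker list, at most the 3 of highest mean CPM; and the 5 genes most like Mb and Car3. Opposite-strand and neighbouring genes, markers at 0, Adipoq, Cidec, Pparg, Tnni1, Rn7sk, Alas2 and Car9 were named outside that rule, after their values were seen. Members and lists were chosen with earlier results of these data known. Libraries of a group differed by more than counting noise (chi-square over its degrees of freedom 28.6 in IVS and 19.7 in IVS_diosmin).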

Additional observations from a re-analysis of the deposited data

How the results depend on the processing

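The 400 genes past the threshold became 616 with DESeq2, 919 with no filter on low counts and 93 with the replicate block, and 27 to 233 when a library was left out, where the variance of a lone library was taken from the remaining group. The balance of 159 higher and 241 lower turned to 21 and 6 without IVS_diosmin replicate 1 and to 106 and 61 without IVS_diosmin replicate 2. Of the 10 genes, 1 passed; 3 did with DESeq2, 2 with RLE scaling, 3 with no filter, 0 with the replicate block and 0 to 3 without a library. Of the related genes 5 passed, against 1 with the block and 0 to 2 without a library. The labels do not say that same-numbered libraries are paired. Their deviations from the group means correlated at 0.02 over 13533 genes, which with 2 libraries per group cannot exclude a pairing. With the block Mb gave a log2 fold change of 1.13 (adjusted p = 0.0605, edgeR). Car4 turned from -0.27 to 0.26 without IVS replicate 2 (without a library, -0.68 to 0.26). Alas1, at 0.01, turned to -0.0013 with no filter, to -0.02 without IVS replicate 2 and to -0.078 without IVS_diosmin replicate 1 (without a library, -0.078 to 0.077). Hbb-bt could be fitted only with no filter (log2 1.07, adjusted p = 0.798). Mb, Car2, Car3, Car14, Hba-a1, Hba-a2 and Hbb-bs kept their direction under every alternative run. With 1 to 28 counts per library, and reads shared with a twin left out, changes in Hbb-bt and Hba-a2 were hardly measurable.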
